A study of Mus musculus with 39 samples.

Results

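Mammary tumours that carried the label Lyn low were compared by genotype, so that a low Lyn level in tumours with floxed Lyn alleles was set against a low Lyn level in tumours with wild-type Lyn. The comparison held 11 of the 39 tumours of the series, from 8 of its 28 mice, namely 7 Lynfl/fl tumours from 5 mice and 4 Lynwt/wt tumours from 3 mice. A further 2 tumours labelled Lyn low were Lynfl/wt and served only as an alternative, and the 6 Lynfl/fl and 8 Lynwt/wt tumours without that label formed the set against which the genotype difference was compared. Each library was made from poly(A) RNA of a piece of frozen tumour, so that fewer cells of a type and less RNA per cell cannot be told apart.

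All mice were adult females that carried BlgCre, Brca1flox/flox and p53 +/-, together with floxed or wild-type Lyn alleles. BlgCre expresses Cre recombinase from the beta-lactoglobulin promoter, which is active in mammary epithelium, so immune, stromal and vascular cells of these tumours were not its target. The tumours were adenocarcinomas of no special type and all 11 were placed by the study in its PCA group 1/2. Tumours 37 and 38 came from 1 Lynfl/fl mouse, 73 and 74 from another, and 02 and 04 from 1 Lynwt/wt mouse, so tumours of a group were not all independent animals. The Lynfl/fl mice had received no treatment, while Lynwt/wt tumours 40 and 60 came from mice given a vehicle in another experiment. The same 2 tumours were the Lynwt/wt tumours of autopsy series 21, and 02 and 04 those of series 20. Within the 4 Lynwt/wt tumours, treatment and autopsy series therefore cannot be told apart.

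LYN is a Src-family tyrosine kinase. In B cells and myeloid cells it relays signals from antigen, cytokine and adhesion receptors and also starts inhibitory signals through phosphatases, and in mammary epithelium it lies downstream of the receptor KIT in luminal progenitor cells, the population from which Brca1-deficient tumours are thought to arise. The floxed part of the gene is exon 4, at chr4:3743197-3743302 on the + strand of GRCm38. It is the fourth of 13 exons in Lyn-201 and Lyn-202, the annotated transcripts with at least 13 exons. The exon is wholly coding and 106 bases long, 1 base over whole codons, so its removal shifts the reading frame. It is shown because it is the sequence that Cre can remove from the floxed allele and not from the wild-type allele:
Lyn exon 4: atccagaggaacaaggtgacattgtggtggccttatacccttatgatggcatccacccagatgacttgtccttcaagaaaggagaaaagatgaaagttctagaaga
The counts were made over the whole gene and do not separate reads of this exon from reads of the others, so recombination was not measured here. In cultured cells of some floxed tumours the paper found the floxed allele still unrecombined.

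Values are normalised counts, that is, reads per gene scaled by the TMM method to the mean library of the 11 tumours. Fold changes are log2 of Lynfl/fl over Lynwt/wt with their standard error (SE), from edgeR's quasi-likelihood test over 18775 genes. A gene was called at a Benjamini-Hochberg adjusted p under 0.05 with at least a 2-fold difference. Library totals ran between 53254000 and 80787200 counts in Lynfl/fl tumours and between 62409100 and 72883600 in Lynwt/wt tumours. Neither the totals nor the number of genes detected, the share of the 10 most abundant genes, the mitochondrial share or the TMM factor differed between genotypes by exact two-sided permutation tests over the 330 splits of the tumours (p = 0.236 to 0.921, each 0.921 after adjustment over the 5 tests, with 0.00303 the smallest p possible). The luminal and epithelial genes that check the tissue were abundant in every tumour. Epcam had 54160 to 158725 counts in Lynfl/fl and 40112 to 111327 in Lynwt/wt tumours, and Krt8 had 29205 to 85706 in Lynfl/fl and 19961 to 124936 in Lynwt/wt tumours.

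The label was given to the tumours with the lowest Lyn counts of the series, so the Lyn values are a description. Lyn counts were 684, 1710, 1518, 1475, 1023, 819 and 1550 in Lynfl/fl tumours 35, 37, 38, 55, 56, 73 and 74, against 1963, 2289, 1915 and 1786 in Lynwt/wt tumours 02, 04, 40 and 60. Every Lynfl/fl tumour was thus below every Lynwt/wt tumour even among those labelled low, with means of 1254 ± 405 (SD, n = 7) and 1988 ± 214 (SD, n = 4). On the TMM scale of the 39 tumours, which is not the normalisation on which the study ranked them, the 2 sides of the label crossed slightly. The highest tumour labelled low was Lynwt/wt 04 with 2277, and the lowest tumours without the label were Lynfl/fl 54 with 2255 and Lynfl/fl 72 with 2395. Among the other Src-family kinases, 7 of 8 passed the filter on low counts and 0 of 7 reached an unadjusted p under 0.05, with a median log2 fold change of -0.05. Src, the founding member of the family, had a lowest, median and highest count of 6540, 9736 and 20273 in Lynfl/fl tumours, against 14771, 14478, 11950 and 15076 in Lynwt/wt tumours (log2 -0.40, SE 0.28).

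The other targeted genes were read in the same libraries. Brca1, the DNA repair gene that is floxed in all mice, had 1344, 1530, 1353, 677, 983, 1868 and 1351 counts in Lynfl/fl tumours, against 2395, 3356, 2064 and 1829 in Lynwt/wt tumours. All but 1 of the Lynfl/fl tumours lay below the lowest Lynwt/wt tumour, and the difference was not called (log2 -0.89, SE 0.29, edgeR unadjusted p = 0.00824, adjusted p = 0.511). Trp53, of which 1 germline copy is lost in all mice, did not separate the genotypes, with 632 to 1635 counts in Lynfl/fl and 928 to 1569 in Lynwt/wt tumours (log2 -0.04, SE 0.30).

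Across all genes, 0 of 18775 were called between Lynfl/fl and Lynwt/wt tumours by edgeR (0%), and the lowest adjusted p was 0.511. At an unadjusted p under 0.05 stood 1389 genes (7.4%), of which 528 were higher in Lynfl/fl (2.81%) and 861 lower (4.59%). The groups did not overlap in 186 genes (0.991%), with every Lynfl/fl tumour above every Lynwt/wt tumour in 56 (0.298%) and below in 130 (0.692%). DESeq2 on the same genes called 103 (0.549%), 63 of them higher (0.336%) and 40 lower (0.213%), and 100 of the 103 had an unadjusted p under 0.05 in edgeR. Since the calls depended on the count model, the genes of the following paragraphs are given by their values and none is described as changed. A fit that took the spread from all 39 tumours called 3 genes, Kazald1 higher and Hif3a and RP23-403O15.4 lower in Lynfl/fl.

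Among the genes with higher counts in Lynfl/fl tumours, the smallest p belonged to a long noncoding RNA on chromosome 8, RP24-129F24.1. It had 448, 207, 579, 397, 202, 519 and 754 counts in Lynfl/fl tumours 35 to 74, against 52.1, 11.9, 6.61 and 15.4 in Lynwt/wt tumours 02 to 60 (log2 4.36, SE 0.71, edgeR unadjusted p = 3.45e-05, adjusted p = 0.511). The groups were far apart, 202 being the lowest Lynfl/fl count and 52.1 the highest Lynwt/wt count. Pde4b, a phosphodiesterase that degrades cAMP, had 3685, 12192, 7800, 4268, 4748, 7743 and 9961 counts in Lynfl/fl, against 2385, 2344, 2462 and 1459 in Lynwt/wt tumours (log2 1.74, SE 0.36). Kdm3a, a histone H3 lysine demethylase induced by low oxygen, had 14910, 9125, 16681, 12533, 9689, 9588 and 12266 in Lynfl/fl, against 6181, 4461, 7576 and 5468 in Lynwt/wt tumours (log2 1.03, SE 0.24). In both genes every Lynfl/fl tumour exceeded every Lynwt/wt tumour.

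Steap4, a metalloreductase of the cell membrane, followed the same order, with a lowest, median and highest count of 1826, 5005 and 9940 in Lynfl/fl tumours against 1684, 1279, 1036 and 1019 in Lynwt/wt tumours (log2 1.94, SE 0.47). The gap between the groups was narrow for it, because Lynfl/fl tumours 37 and 38, of the same mouse, had 1857 and 1826. Kazald1, a secreted protein with insulin-like growth factor binding and Kazal domains, had 2026, 1180, 1678, 241, 3527, 3785 and 805 in Lynfl/fl tumours, against 90, 139, 245 and 240 in Lynwt/wt tumours (log2 3.41, SE 0.70). Only tumour 55 of the Lynfl/fl group reached down to the Lynwt/wt range. Csmd1, a large transmembrane protein with complement-control domains, had 436 to 1606 counts in 6 Lynfl/fl tumours and 0 in tumour 56, against 18.9, 0, 7.55 and 5.12 in Lynwt/wt tumours (log2 6.64, SE 1.55).

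Gad1, Lingo1 and Adamts8 were also at the top in this direction. Gad1 makes the transmitter GABA, Lingo1 is a membrane protein of neurons and Adamts8 a secreted metalloprotease. Their medians were 364, 159 and 557 counts in Lynfl/fl tumours, against highest values of 97.5, 43.4 and 200 in Lynwt/wt tumours. Adamts8 did not overlap between the genotypes, while the other two did. DESeq2, which read the same counts by which these genes were picked, called each gene named here as higher, beside 0.336% of all genes.

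The 10 genes with the smallest p among those with lower counts in Lynfl/fl tumours had unlike roles, and 3 of them, Tnc, Smoc2 and Thbs4, encode proteins of the extracellular matrix. Adam12, a metalloprotease of mesenchymal cells, had 433, 372, 743, 921, 504, 846 and 239 counts in Lynfl/fl tumours, against 2016, 4945, 2926 and 964 in Lynwt/wt tumours (log2 -2.23, SE 0.44, edgeR unadjusted p = 0.000242, adjusted p = 0.511). Tnc, the matrix glycoprotein tenascin C, had 7758, 12197, 4112, 17029, 6233, 9016 and 6664 in Lynfl/fl, against 25276, 91037, 22594 and 23390 in Lynwt/wt tumours (log2 -2.17, SE 0.45). Neither gene overlapped between the genotypes, and tumour 04 stood highest for both.

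Smoc2, a calcium-binding matrix protein, had a lowest, median and highest count of 58.5, 232 and 503 in Lynfl/fl tumours, against 2034, 568, 2196 and 589 in Lynwt/wt tumours (log2 -2.63, SE 0.58). C1qtnf3, a secreted protein of the C1q and TNF-related family, had 26.8, 266 and 609 in Lynfl/fl, against 6322, 1270, 5332 and 766 in Lynwt/wt tumours (log2 -3.59, SE 0.75). Thbs4, the matrix protein thrombospondin 4, had 4.88, 213 and 446 in Lynfl/fl, against 1864, 494, 3467 and 1515 in Lynwt/wt tumours (log2 -3.28, SE 0.77). These 3 genes also kept the genotypes apart, and their lowest Lynfl/fl value belonged to tumour 74 each time.

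Lsp1, an actin-binding protein of lymphocytes and other white blood cells, had 471, 848, 612, 1302, 857, 1305 and 997 counts in Lynfl/fl, against 2618, 2640, 3378 and 1802 in Lynwt/wt tumours (log2 -1.51, SE 0.31). Jdp2, a repressor that dimerises with JUN proteins, had 640, 860 and 964 as its lowest, median and highest count in Lynfl/fl, against 1500, 2944, 1570 and 1413 in Lynwt/wt tumours (log2 -1.16, SE 0.26). Both were without overlap. Ssc5d, a secreted scavenger receptor, had 17.1 to 172 in Lynfl/fl and 164 to 1783 in Lynwt/wt tumours (log2 -3.04, SE 0.71).

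The remaining 2 genes of this direction depended on few tumours. Hif3a, a hypoxia-inducible factor subunit, had 0 to 10.5 counts in Lynfl/fl tumours and 4638 in Lynwt/wt tumour 40, but 24.6, 4.75 and 35.8 in Lynwt/wt tumours 02, 04 and 60. Its log2 fold change of -7.47 was -1.72 without tumour 40. RP24-553B2.1, on chromosome 3, had 4.16 to 43.9 counts in Lynfl/fl tumours and 89, 1109, 489 and 18.8 in Lynwt/wt tumours (log2 -4.20, SE 0.90, and -3.10 without tumour 04). DESeq2, on the same counts, called 8 of these 10 genes as lower, beside 0.213% of all genes, and gave no p for Tnc and Hif3a.

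**Figure D1:**
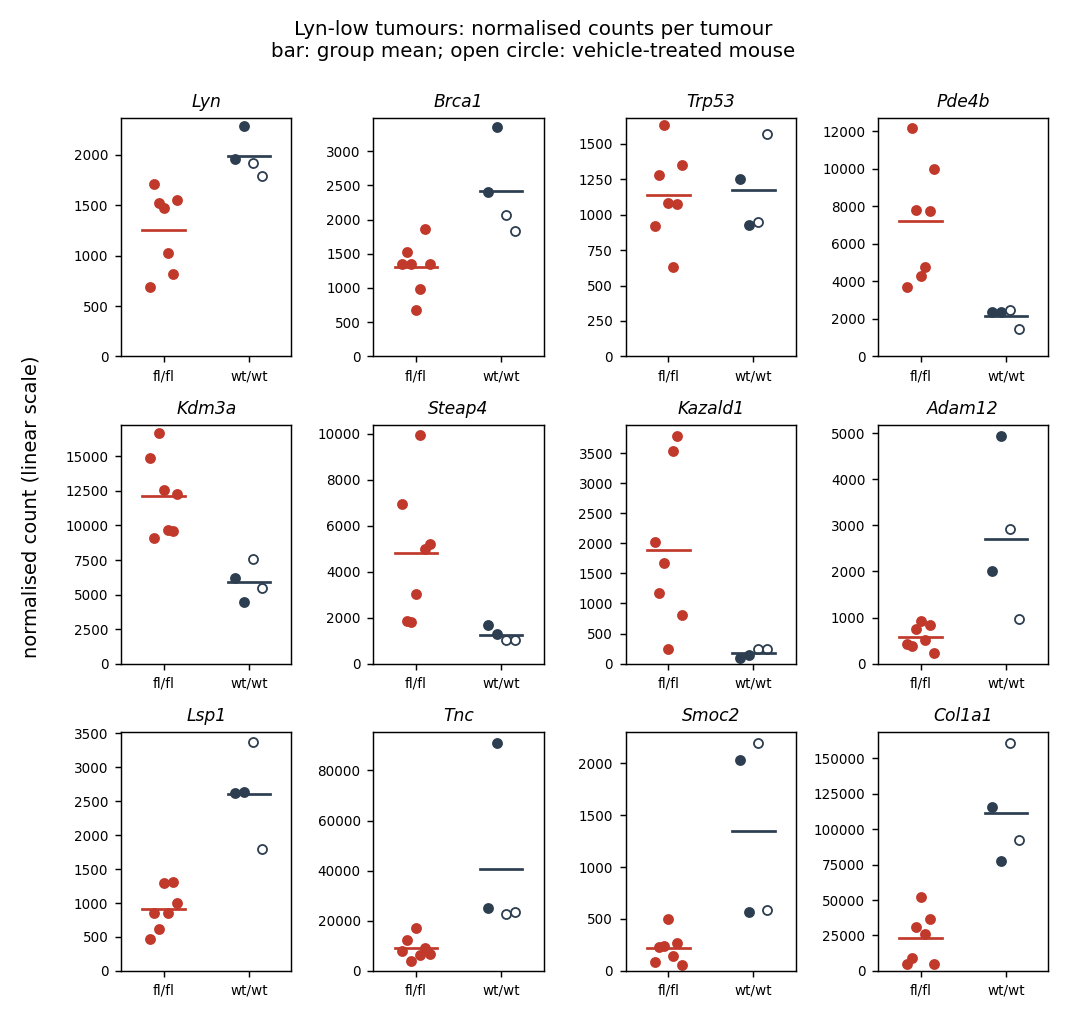
Normalised counts (y axis, linear, from 0) of 12 genes in 7 Lynfl/fl tumours (left) and 4 Lynwt/wt tumours (right) labelled Lyn low. Each point is 1 tumour, bars are group means and open circles are tumours of vehicle-treated mice; Lyn, Pde4b, Kdm3a, Steap4, Adam12, Lsp1, Tnc, Smoc2 and Col1a1 do not overlap between the genotypes, while Brca1, Trp53 and Kazald1 do.

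A set of genes with differences between all Lynfl/fl and all Lynwt/wt tumours was read within the Lyn-low tumours, which form part of that comparison. The tumours without the label form the rest of it, so like values in both sets follow in part from how the genes were chosen. Rasd1, a small GTPase induced by glucocorticoids, had 530, 2742, 408, 3900, 9155, 3998 and 2600 counts in Lynfl/fl, against 992, 53.5, 96.3 and 380 in Lynwt/wt tumours (log2 3.13, SE 0.98, against 2.31 in the tumours without the label). Creb3l1, a transcription factor of the secretory pathway, had 48.8 to 462 in Lynfl/fl and 585 to 2795 in Lynwt/wt tumours (log2 -2.30, SE 0.58, against -2.86). Ttc7b had 244 to 920 in Lynfl/fl and 519 to 2775 in Lynwt/wt tumours (log2 -1.52, SE 0.46, against -1.75). Dmp1, a matrix protein of mineralised tissue, was dominated by 16804 counts in Lynfl/fl tumour 73, the others having 54.9 to 2268, against 37.8 to 261 in Lynwt/wt tumours. Capns2, a calpain small subunit, had a log2 fold change of -0.56 (SE 0.75) in Lyn-low tumours, where Lynfl/fl had 6.27 to 35.7 counts and Lynwt/wt 1.89 to 54.8, and of -6.20 in the other tumours. The difference between the sets was not called (edgeR unadjusted p = 0.0133, adjusted p = 0.892), and the Lyn-low value was 0.95 without the vehicle-treated tumours.

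Fibroblast genes were the cell type list with the most members at a small p. Of 13 members, 10 had lower counts in Lynfl/fl at an unadjusted p under 0.05 and 0 higher, beside 4.59% and 2.81% of all genes, and the median log2 fold change was -1.69 beside -0.01 over all genes. Col1a1, the first chain of type I collagen, had 5004, 8910, 30812, 52272, 26190, 36551 and 4534 counts in Lynfl/fl tumours, against 115403, 77636, 160939 and 92654 in Lynwt/wt tumours (log2 -2.25, SE 0.59, edgeR unadjusted p = 0.00225, DESeq2 adjusted p = 0.0445). Every Lynfl/fl tumour was below every Lynwt/wt tumour, as for Col1a2, its partner chain, and Col6a1, a chain of type VI collagen. DESeq2 called Col1a1 alone of the 13, with adjusted p = 0.0734 for Col1a2, 0.0596 for Col3a1 and 0.108 for Col6a1. Col3a1, the chain of type III collagen, had 2385, 17766 and 53116 as its lowest, median and highest count in Lynfl/fl, against 106905, 50327, 248511 and 72086 in Lynwt/wt tumours (log2 -2.49, SE 0.71).

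Among the members that encode surface proteins, the protease Fap had a log2 fold change of -1.59 (edgeR unadjusted p = 0.0418), Thy1 -0.59, Pdgfrb -0.30 and Pdgfra, a receptor for platelet-derived growth factor, 0.92. The last 3 had an unadjusted edgeR p above 0.05, and all 4 were named, like Vim and Csf1r, after their values were seen. The summed level of the 13 genes was 20218 to 219361 in Lynfl/fl tumours (median 89773) and 278600 to 657443 in Lynwt/wt tumours (median 363739), so the sums did not overlap. The mean log2 CPM of the list was 6.52 in Lynfl/fl tumour 55, its highest in that group, and 6.33 in Lynwt/wt tumour 04, its lowest in the other. The mesenchymal list shared this direction through Cdh11, a cadherin of mesenchymal cells, with 60.7 to 840 counts in Lynfl/fl and 1079 to 2376 in Lynwt/wt tumours (log2 -2.06, SE 0.58), and through the matrix protein Sparc (log2 -1.27, SE 0.39). Those were 2 of its 12 members at an unadjusted p under 0.05, and Vim, the intermediate filament of mesenchymal cells, had -0.71 (SE 0.58, edgeR unadjusted p = 0.245). The count of fibroblast genes at an unadjusted p under 0.05 was 5 without the vehicle-treated Lynwt/wt tumours and 6 with treatment as a covariate, and the list's median was -1.10 and -1.11.

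Muscle, blood and fat genes also had values apart between the genotypes, each through particular tumours. Skeletal muscle genes were lower in Lynfl/fl in 10 of 10 members, with a median log2 fold change of -4.32. Of these, 5 had an unadjusted p under 0.05, beside 4.59% of all genes lower at that p. The mean log2 CPM of the list was 8.02 in Lynwt/wt tumour 40, 4.83 in Lynwt/wt tumour 02 and 4.38 in Lynfl/fl tumour 37, and -4.43 to -0.09 in the other 8 tumours, so muscle genes were abundant in 3 tumours, of both genotypes. Without tumour 40 the count was 2 and the median -1.10, and without tumour 37 they were 8 and -8.85. Red blood cell genes were lower in 7 of 7 members, 5 at an unadjusted p under 0.05 beside the same 4.59% (median -1.50). Without Lynwt/wt tumour 60 the count was 1 and the median -0.93. Hbb-bs, a beta globin, had 885, 2246 and 4957 as its lowest, median and highest count in Lynfl/fl, against 4641, 5967, 3276 and 14713 in Lynwt/wt tumours, and globin genes have near-identical copies between which reads are uncertain.

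Adipocyte genes went the other way, with higher counts in Lynfl/fl in 9 of 10 members. Of these, 4 had an unadjusted p under 0.05, beside 2.81% of all genes higher at that p. The median was 2.11, but 1.23 without Lynfl/fl tumour 73, 3.53 without Lynwt/wt tumour 04 and 0.61 under a stricter filter on low counts. The values were high in Lynfl/fl tumours 55 and 73, which had 520 and 478 counts of the lipid droplet gene Cidec and 2713 and 2704 of Cfd, the protease adipsin. The other 5 Lynfl/fl tumours had 15.9 to 99.9 Cidec counts, against 3.79, 68.9, 15.1 and 8.53 in Lynwt/wt tumours. None of the 4 kept an unadjusted p under 0.05 in edgeR without the vehicle-treated tumours, with treatment as a covariate or without tumour 40. The part of these other tissues in the genotype differences was not tested.

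Immune cell lists gave small values. Macrophage genes were lower in Lynfl/fl in 15 of 15 members with a median log2 fold change of -0.49, and 2 reached an unadjusted p under 0.05, beside 4.59% of all genes. Those were the scavenger receptors Cd163 and Mrc1, and both turned on Lynwt/wt tumour 40, which had 2189 and 7796 counts, while the highest of the other 3 Lynwt/wt tumours had 418 and 1400. Csf1r, the receptor that macrophages need to live, had a log2 fold change of -0.49 and Lyz2, lysozyme, -0.73 (SE 0.34), with 7798 to 27716 counts in Lynfl/fl and 16631 to 45869 in Lynwt/wt tumours. T cell genes numbered 18 with 0 at an unadjusted p under 0.05 (median 0.51), and of 12 B cell genes only 5 passed the filter, again with 0 (median -0.21). Among 29 genes of LYN regulators and partners, 27 were tested, 21 had lower counts in Lynfl/fl (median -0.25) and 1 was lower at an unadjusted p under 0.05, beside 4.59% of all genes. Their summed level, in which abundant members weigh most, was 133688 to 152371 in Lynfl/fl and 159756 to 163317 in Lynwt/wt tumours. The mean log2 CPM of the list overlapped, at 3.76 to 4.62 in Lynfl/fl and 4.36 to 4.95 in Lynwt/wt tumours. Akt1, the kinase of the PI3K pathway, had 10830 to 24050 counts in Lynfl/fl, against 14022, 45688, 21801 and 44968 in Lynwt/wt tumours (log2 -0.78, SE 0.32), and its high values were those of tumours 04 and 60. Syk, the kinase that acts after LYN in immune receptor signalling, had a log2 fold change of -0.58 (SE 0.33) and Pag1, an adaptor that holds Src-family kinases in check, -0.61 (SE 0.39).

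Immediate-early genes, which respond within minutes to growth factor or stress signals and also to the handling of tissue, had higher counts in Lynfl/fl in 14 of 15 members, with a median log2 fold change of 0.65. At an unadjusted p under 0.05, 5 members were higher and 0 lower, beside 2.81% and 4.59% of all genes. Junb, a subunit of the AP-1 transcription factor, had 30819, 22197, 18279, 24194, 23394, 28106 and 25270 counts in Lynfl/fl, against 5551, 15878, 5831 and 13529 in Lynwt/wt tumours (log2 1.27, SE 0.32, edgeR unadjusted p = 0.00152, DESeq2 adjusted p = 0.0326). It did not overlap between the genotypes. Ier3, an early response gene of stressed cells, had 9851, 20437 and 34788 as its lowest, median and highest count in Lynfl/fl, against 5016, 9260, 14843 and 6775 in Lynwt/wt tumours (log2 1.32, SE 0.39). Egr3, a zinc finger factor, and Zfp36, which speeds the decay of cytokine mRNAs, had 1.78 (SE 0.59) and 0.65 (SE 0.21). In the tumours without the label the median of this list was 0.44.

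The list of glycolysis and hypoxia genes had 15 of 19 members higher in Lynfl/fl (median 0.42, and 0.24 to 0.94 when 1 tumour was left out). Of these, 5 had an unadjusted p under 0.05, beside 2.81% of all genes. Egln3, an oxygen-sensing prolyl hydroxylase, had 7893, 21482 and 34742 as its lowest, median and highest count in Lynfl/fl, against 6885, 4278, 11324 and 7960 in Lynwt/wt tumours (log2 1.51, SE 0.40, DESeq2 adjusted p = 0.0483). Vegfa, the growth factor for blood vessels, had 7658, 12805 and 39502 in Lynfl/fl, against 1818, 16136, 2952 and 2798 in Lynwt/wt tumours (log2 1.61, SE 0.65), and Ndrg1, a gene induced by low oxygen, had 1.95 (SE 0.75). Lynwt/wt tumour 04 stood with the Lynfl/fl tumours for both, and the count was 9 without it. The count was 2 without the vehicle-treated tumours.

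**Figure D2:**
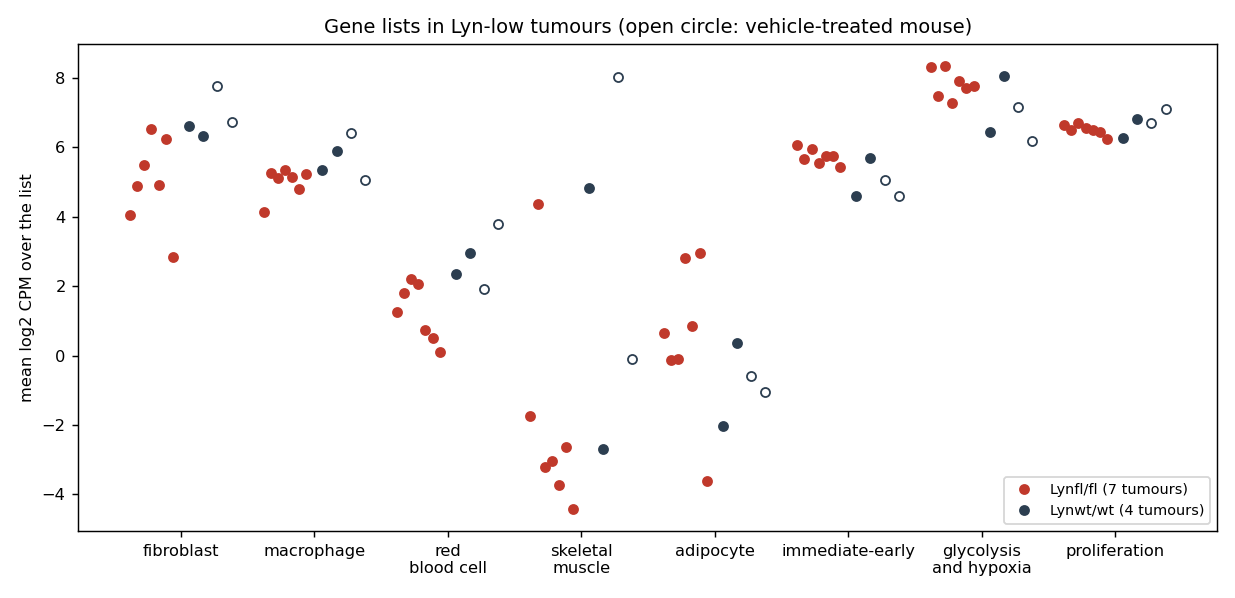
Mean log2 CPM (y axis) over the genes of 8 lists in each Lyn-low tumour, Lynfl/fl to the left of Lynwt/wt within each list; each point is 1 tumour and open circles are vehicle-treated mice. Fibroblast genes were lower in most Lynfl/fl tumours with 1 crossing (6.52 in tumour 55 against 6.33 in Lynwt/wt tumour 04), and the muscle list is high in 3 tumours of both genotypes.

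Epithelial identity was read from lists of luminal, milk protein and basal genes. Luminal progenitor genes had 0 of 10 members at an unadjusted p under 0.05 (median 0.33), with Elf5, a factor of alveolar progenitors, at 3596 to 21358 counts in Lynfl/fl and 3268 to 15200 in Lynwt/wt tumours. Milk protein genes had 0 of 8 and hormone-sensing genes 1 of 12. That 1 was Tbx3, a T-box factor of mammary development, with 4242, 5347, 12045, 143, 1733, 808 and 483 counts in Lynfl/fl, against 110, 54.7, 202 and 286 in Lynwt/wt tumours (log2 4.44, SE 1.14, DESeq2 adjusted p = 0.000766). Lynfl/fl tumour 55 stayed in the Lynwt/wt range, and Esr1, which encodes the oestrogen receptor, was not among the members at a small p. Of 12 basal and myoepithelial genes, 1 was higher and 3 lower in Lynfl/fl at an unadjusted p under 0.05, beside 2.81% and 4.59% of all genes. Their median log2 fold change of -0.10 ran between -0.58 and 0.55 when 1 tumour was left out. Tagln, an actin-binding protein of smooth muscle and myoepithelium, had 546, 2060 and 4266 as its lowest, median and highest count in Lynfl/fl, against 5809, 4953, 5354 and 5511 in Lynwt/wt tumours, without overlap (log2 -1.28, SE 0.41). Mylk, the kinase of myosin light chains, had 494 to 1948 in Lynfl/fl and 579 to 4930 in Lynwt/wt tumours (log2 -1.39, SE 0.52, and -0.08 without tumours 02 and 04). Krt5, a basal keratin, was higher in 6 of 7 Lynfl/fl tumours than in any Lynwt/wt tumour, with 75.5 to 892 counts in those 6 and 12 in tumour 38, against 22.2 to 37.8 in Lynwt/wt tumours (log2 3.29, SE 0.92). Its partner Krt14 had 425 to 8395 counts in Lynfl/fl, against 1022, 65820, 1131 and 5976 in Lynwt/wt tumours. The Krt14 log2 fold change of -2.19 was 0.58 without tumour 04.

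Of 25 proliferation genes, 6 were lower in Lynfl/fl at an unadjusted p under 0.05 and 0 higher, beside 4.59% and 2.81% of all genes, with a median log2 fold change of -0.13 that ran between -0.29 and 0.01 when 1 tumour was left out. Mcm4, a subunit of the replicative helicase, had 4117, 5369 and 6577 as its lowest, median and highest count in Lynfl/fl, against 5815, 8201, 10748 and 12886 in Lynwt/wt tumours (log2 -0.78, SE 0.23), and Birc5, survivin, had -0.87 (SE 0.26). Of 27 genes of homologous recombination and the Fanconi pathway, 3 were lower and 1 higher at that p, beside the same shares of all genes (median -0.10). Trp53bp1, which directs repair away from recombination, had 2338, 4323 and 5240 in Lynfl/fl, against 5819, 5565, 6789 and 8407 in Lynwt/wt tumours (log2 -0.79, SE 0.26) without overlap. Of 18 p53 target genes, 3 were higher and 1 lower at an unadjusted p under 0.05, again beside 2.81% and 4.59% of all genes. Fas, the death receptor, had 350 to 944 counts in Lynfl/fl and 106 to 434 in Lynwt/wt tumours (log2 1.34, SE 0.46).

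Read by chromosome, the differences were uneven. Medians by chromosome, of fold changes and of values per tumour, were taken over genes with a mean of at least 100 counts. Chromosome 16 had a median log2 fold change of -0.51 over 422 such genes. Of its 543 tested genes, 135 were lower in Lynfl/fl at an unadjusted p under 0.05 (24.9%) and 4 higher (0.737%). Over all genes these shares were 4.59% and 2.81%. On it every Lynfl/fl tumour was below every Lynwt/wt tumour in 36 genes (6.63%), beside 0.692% over all genes. The median over the chromosome's genes, taken in each tumour against the mean of the 11, was 0.14, -0.35, -0.29, 0.14, -0.29, -0.11 and -0.39 in Lynfl/fl tumours 35 to 74, against 0.34, 0.21, 0.31 and 0.38 in Lynwt/wt tumours. The Lynwt/wt tumours were thus all above the Lynfl/fl tumours, by a small step over tumours 35 and 55. Leaving out any 1 tumour kept the median fold change between -0.55 and -0.44, and in the tumours without the Lyn-low label it was -0.19.

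Most of the 36 genes on chromosome 16 start between positions 15552077 (Ube2v2) and 45139573 (Slc35a5), and they have unlike roles. The others are Cmss1, which starts at 57302000, and Psmg1, Wrb and Zbtb21, which start at 95979933 or beyond. Tfrc, the transferrin receptor, averaged 11505 counts in Lynfl/fl and 22402 in Lynwt/wt tumours (log2 -0.96). Gsk3b, a kinase of the WNT and insulin pathways, averaged 5111 in Lynfl/fl and 8359 in Lynwt/wt tumours (log2 -0.71). Pak2, a kinase of the cytoskeleton, averaged 9276 in Lynfl/fl and 14054 in Lynwt/wt tumours (log2 -0.60), and Rnf168, a ubiquitin ligase that acts at DNA breaks, 2367 in Lynfl/fl and 3685 in Lynwt/wt tumours (log2 -0.64). These 4 were picked from the 36 after their values were seen.

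Chromosomes 12, 2 and 11 also had negative medians, at -0.42, -0.24 and -0.21. In the tumours without the Lyn-low label these medians were -0.27, -0.18 and 0.16. The value of chromosome 12 was 0.60 and 0.77 in Lynwt/wt tumours 04 and 60 and -0.15 and -0.18 in tumours 02 and 40, against -0.38 to 0.27 in Lynfl/fl tumours. Its median fold change was -0.21 without tumour 60 and -0.27 without tumour 04. Chromosome 2 stood at 0.55 in Lynwt/wt tumour 60, without which its median was -0.08. Of its 1436 tested genes, 143 were lower at an unadjusted p under 0.05 (9.96%, beside 4.59% of all genes). Every Lynfl/fl tumour was below every Lynwt/wt tumour in 29 of them (2.02%, beside 0.692% of all genes). Chromosome 11 had 119 of 1497 genes lower at an unadjusted p under 0.05 (7.95%, beside 4.59% of all genes). Its values were -0.28 to 0.18 in Lynfl/fl and 0.04 to 0.20 in Lynwt/wt tumours, with a median between -0.27 and -0.14 when 1 tumour was left out. It holds Brca1, Trp53, Col1a1 and Rasd1. Akt1 lies on chromosome 12 and was highest in tumours 04 and 60. The largest positive medians were those of chromosomes 17 (0.23), X (0.21), 4 (0.19), which holds Lyn, and 1 (0.19). Genes higher in Lynfl/fl at an unadjusted p under 0.05 made up 5.89%, 3.42%, 4.93% and 5.89% of them, beside 2.81% of all genes. Gene copy number was not measured in these libraries.

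**Figure D3:**
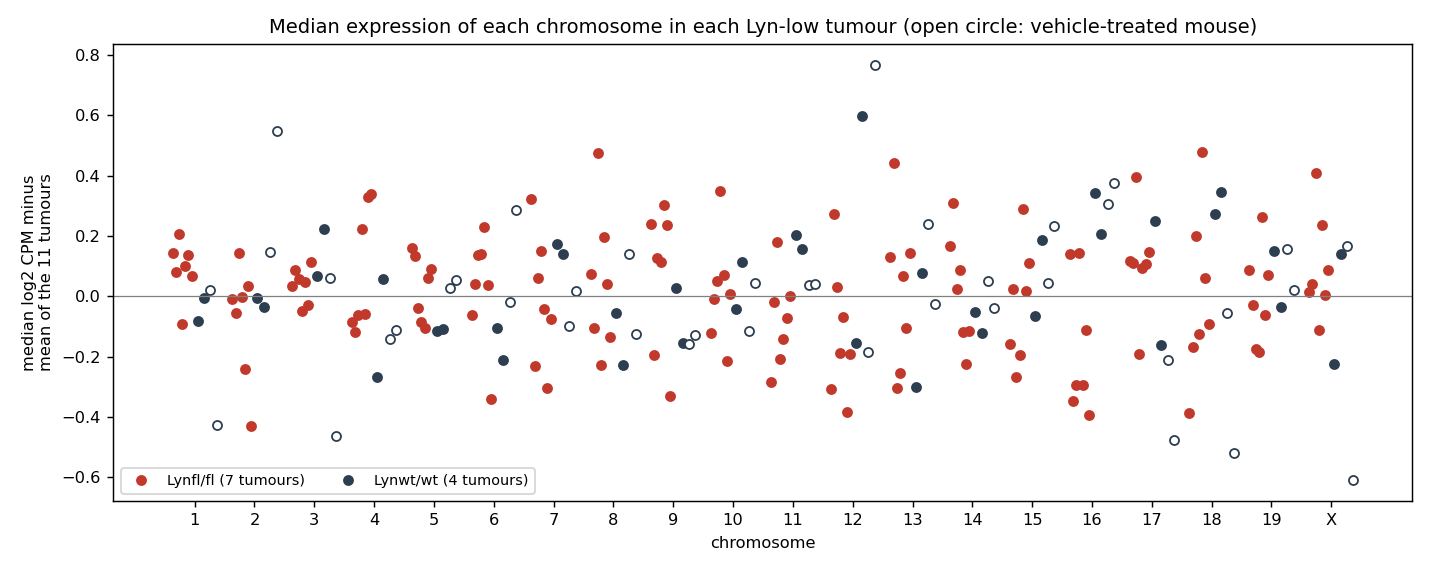
Median, over genes with a mean of at least 100 counts, of log2 CPM minus the mean of the 11 tumours (y axis) for each chromosome (x axis), Lynfl/fl to the left of Lynwt/wt. Each point is 1 tumour and open circles are vehicle-treated mice. On chromosome 16 the Lynfl/fl tumours lie at -0.39 to 0.14 and the Lynwt/wt tumours at 0.21 to 0.38, while chromosome 12 stands at 0.60 and 0.77 in 2 Lynwt/wt tumours.

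Lynwt/wt tumour 04 also differed from the other 10 tumours over a short stretch of chromosome 6. Met, the receptor for hepatocyte growth factor, had 322135 counts in tumour 04 and 2225 to 10752 in the other 10, so that the gap was far larger than the spread among those 10. Its neighbours on both sides were high in the same tumour. Tes, an adhesion protein, had 386852 counts (23.6 times the highest other tumour), Cav1, the coat protein of caveolae, 118154 (21.8 times), and Capza2, an actin capping subunit, 373197 (21.3 times). Farther out, St7 was at 5.34 times and Lsm8 at 16.5 times the highest other tumour, while Cttnbp2 between them had 114 counts in tumour 04, within the 9.76 to 4564 of the other 10. These genes were examined after their values had been seen. The log2 fold change of Met between Lynfl/fl and Lynwt/wt tumours, -4.0, was -0.31 without tumour 04 and 0.21 without both tumours of its mouse.

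**Figure D4:**
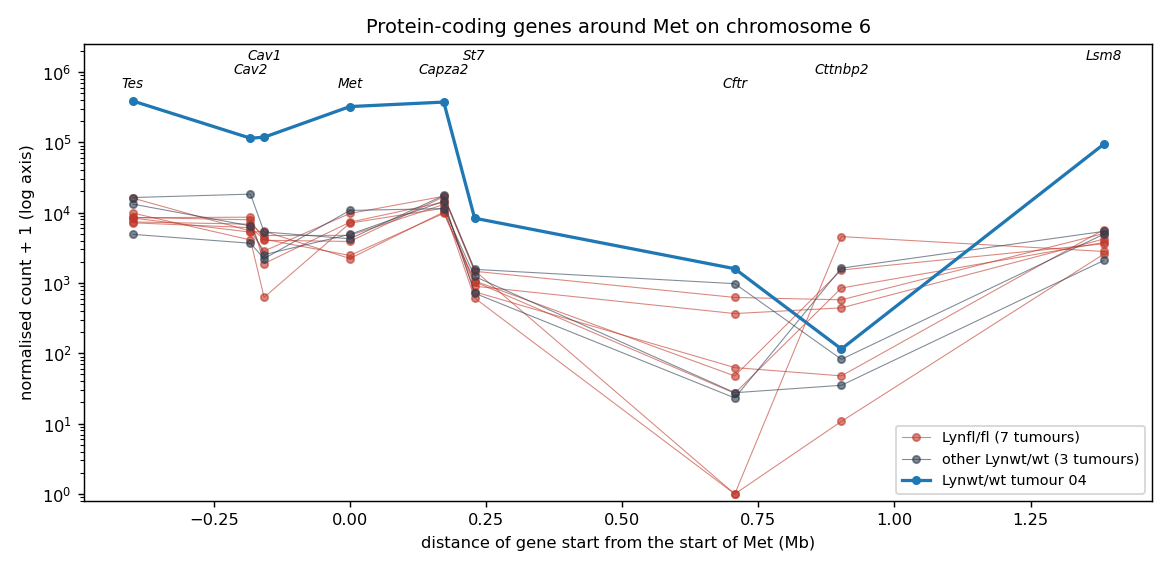
Normalised count plus 1 (y axis, log) of protein-coding genes with a mean of at least 100 counts against the distance of their start from that of Met (x axis, Mb). Thin lines are 7 Lynfl/fl tumours and 3 Lynwt/wt tumours and the thick line is Lynwt/wt tumour 04, which has 322135 Met counts beside 2225 to 10752 in the others.

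Whether the genotype difference in Lyn-low tumours differed from that in the other tumours was tested in 1 fit over 25 tumours. All Lyn-low tumours were of PCA group 1/2, while 1 Lynfl/fl and 3 Lynwt/wt tumours of the other set were of group 3/4. Tumours of some mice stood in both sets (Lynfl/fl 54 and 55, Lynfl/fl 56 and 70, and Lynwt/wt 03 with 02 and 04). The test of the difference called 0 of 20655 genes by edgeR (0%, lowest adjusted p 0.892), 1103 stood at an unadjusted p under 0.05 (5.34%), and DESeq2 called 19 (0.092%). With PCA group 1/2 tumours alone edgeR called 0 of 20211 genes (lowest adjusted p 0.575), with 1556 at an unadjusted p under 0.05. In the tumours without the label alone, 0 genes were called (0%), with 1778 at an unadjusted p under 0.05 (8.61%).

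Among the genes with the smallest p in this test, some differed in sign between the sets. Lhx2, a LIM homeobox factor, had a log2 fold change of 4.79 in Lyn-low and -4.44 in other tumours (difference 9.19, edgeR unadjusted p = 0.000375), but among Lyn-low Lynfl/fl tumours it ranged between 0 and 1987 counts with 252 the next below the highest, against 2.38 to 22.2 in Lynwt/wt tumours. Gvin1, a large interferon-induced GTPase, had -1.39 in Lyn-low and 2.02 in other tumours (difference -3.41, edgeR unadjusted p = 0.000275), with 14.6 to 32.2 counts in Lynfl/fl and 15.4 to 138 in Lynwt/wt Lyn-low tumours. RP23-403O15.4 had a difference of -5.02 that was 0.25 without Lynwt/wt tumour 40, which held 2028 of its counts. Interferon-stimulated genes as a list had a median of -0.40 in Lyn-low and 1.35 in other tumours, with 0 of 19 at an unadjusted p under 0.05 in Lyn-low tumours. For the difference between the sets, Ifit1, Ifit3, Isg15, Usp18, Mx2, Irf7, Stat2, Ifi44 and Bst2 had an edgeR unadjusted p of 0.0059 to 0.0388. Of all genes, 5.34% were under 0.05 in that test. The Lyn-low median was 0.45 without Lynwt/wt tumour 04, -1.01 without Lynfl/fl tumour 74 and 1.24 without both Lynwt/wt tumours 02 and 04. Fibroblast genes had -1.69 in Lyn-low and -0.13 in other tumours. For Col3a1 the difference was -2.59 (edgeR unadjusted p = 0.022) and for Col1a1 -1.87 (edgeR unadjusted p = 0.0819). The members Dcn and Lum also had an edgeR unadjusted p under 0.05 for the difference (0.0115 and 0.0311). Col6a3, Col6a1 and Postn were lower in both sets, with -1.26, -1.69 and -1.21 in Lyn-low and -1.16, -0.87 and -0.60 in other tumours. Their edgeR unadjusted p for the difference was 0.924, 0.449 and 0.514. None of these differences was called.

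**Figure D5:**
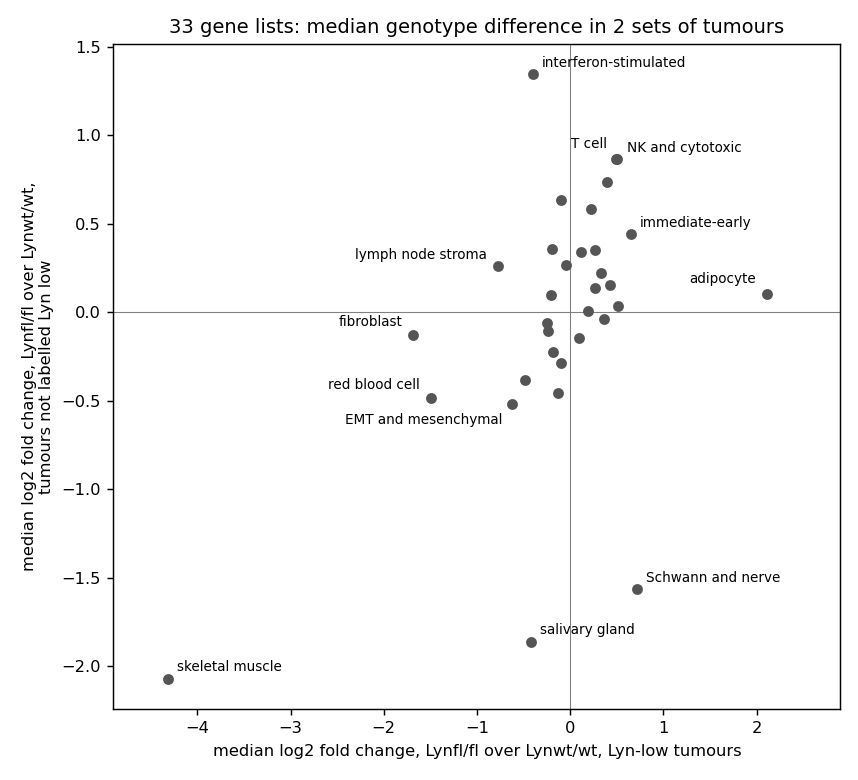
Median log2 fold change of Lynfl/fl over Lynwt/wt in Lyn-low tumours (x axis) against that in tumours without the label (y axis); each point is 1 of 33 gene lists, with the outlying ones named. Fibroblast genes lie at -1.69 and -0.13, adipocyte genes at 2.11 and 0.10 and interferon-stimulated genes at -0.40 and 1.35, where the first value was 0.45 without Lynwt/wt tumour 04.

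By rank correlation, tumours of 1 genotype were about as alike as tumours of different genotype. The Spearman correlation over 13794 genes had a median of 0.893 over the 3 pairs from the same mouse, 0.895 over the 19 pairs of Lynfl/fl tumours of different mice, 0.875 over the 5 such pairs of Lynwt/wt tumours and 0.881 over the 28 pairs across genotypes. The pairs share tumours and the genes share libraries, so these values are descriptions.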

How the data were processed

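The deposited counts are whole reads per gene in 39 tumours. The authors made them from poly(A) directional libraries with STAR 2.5.1b on GRCm38 and featureCounts 1.5.1, leaving out reads with several positions. The strand setting is not given in the sources used here, so antisense and overlapping genes are uncertain. Of counts between 1 and 10, 80.7% were even, as when both reads of a pair are counted. Totals ran between 50490000 and 83122700.

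Counts of the 11 tumours were filtered (filterByExpr), TMM-scaled and tested by the quasi-likelihood test of edgeR 4.0.16 (R 4.3.3), adjusted over all genes kept. DESeq2 1.42.0, limma 3.58.1 with the mouse as a random effect, sums per mouse, other filters, scalings and sample sets were alternatives. The study assigned the Lyn label from expression. Treatment came from the study's animal records. Genes named were Lyn, Brca1, Trp53, 10 per direction with the smallest p at a 2-fold difference and a mean of 100 counts, up to 4 per list, 5 per direction of the difference between sets, and genes of the comparison of all tumours. The members and the 33 lists (427 genes) were chosen with earlier results of these data known. Tumours of 1 mouse were fitted as separate samples, so p-values measure the spread between tumours. Some of these genes are not reported here. Authors' comparison tables were not used.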

Additional observations from a re-analysis of the deposited data

Results flagged for a closer look

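In 25 of 318 groups of values (7.86%) 1 tumour stood apart from the others of its genotype by Dixon's criterion, 14 times among Lynfl/fl and 11 times among Lynwt/wt tumours. The criterion flags about 1 in 20 groups by chance where groups are unselected and independent. Here many genes were picked by their values and the groups share tumours, so that rate is no measure for this share. In Lynwt/wt tumour 04 these were Tnc (91037 counts), Jdp2 (2944) and Capza2 (373197), all high. In Lynwt/wt tumour 60 they were Pde4b (1459), Eda2r (18.8), Btg2 (860) and the plasma cell list (mean log2 CPM 1.16), all low. In Lynwt/wt tumour 40 Elf3 was low (931) and Mrc1 high (7796), and in Lynwt/wt tumour 02 Fndc3c1 (13.3) and the chromosome 9 median (0.027) were high. The other Lynwt/wt tumours had 0 counts of Fndc3c1.

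Among Lynfl/fl tumours, 37 was high for the muscle genes Tnni2 (1266) and Mylpf (1348) and for the whole muscle list (mean log2 CPM 4.38), and low for Pak2 (6229). Tumour 74 was low for Thbs4 (4.88), Akt1 (10830), Tfrc (5541) and Adipoq (0). Tumour 56 was low for Csmd1 (0) and for Hif3a (0, where the other Lynfl/fl tumours had only 3.43 to 10.5). Tumour 38 was high for Bub1 (3376) and low for Amy1 (11.2). Tumour 35 had the lowest mean log2 CPM of LYN regulators and partners, 3.76 against 4.31 to 4.62 in the other Lynfl/fl tumours, and of B cell genes, -0.63 against 0.71 to 1.38. It was also the tumour with the lowest Lyn count.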

How the results depend on the processing

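The count of called genes was 0 under every edgeR and limma alternative except the fit over all 39 tumours, which called 3, and DESeq2 called 103. For the difference between the sets DESeq2 called 19. The lowest adjusted p without tumours 02 and 04 was 0.0582. Leaving out 1 tumour at a time gave 0 to 0 calls. Named genes kept their direction except the following. Without the vehicle-treated tumours and with treatment as a covariate, Trp53 was at 0.062 and 0.064, Capns2 at 0.95 and 0.92 and Mrc1 at 0.055 and 0.042, with Elf5 at -0.070 and -0.044. With autopsy series 21 only, Met was at 0.25 and Krt14 at 0.020, and without tumours 02 and 04 they were at 0.21 and 0.18. Leaving out 1 tumour gave -0.15 to 0.13 for Trp53, -2.56 to 0.58 for Krt14 and -5.46 to 0.25 for the RP23-403O15.4 difference between sets. Among list members at an unadjusted p under 0.05, leaving out 1 tumour gave 7 to 11 for fibroblast, 0 to 5 for adipocyte, 1 to 6 for red blood cell, 2 to 8 for skeletal muscle, 2 to 9 for hypoxia and 4 to 6 for immediate-early genes. With the mouse as a random effect the adipocyte and muscle counts were 1 and 1. The causes were not tested. The treatment covariate and the set without tumours 02 and 04 were chosen after seeing the data. With 4 Lynwt/wt tumours of 3 mice, a difference short of the threshold is not shown to be absent.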

Other observations

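The 2 Lynfl/wt tumours labelled Lyn low belong to neither genotype of the comparison. Their Lyn counts, on the scale of the 13 Lyn-low tumours, were 1671 and 2113, the first inside the Lynfl/fl range and the second inside the Lynwt/wt range.

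The other lists had few members at an unadjusted p under 0.05 in edgeR, where 2.81% of all genes were higher and 4.59% lower. Glucocorticoid-responsive genes had 2 of 14 higher in Lynfl/fl (median log2 fold change 0.26), luminal epithelial genes 1 of 11 higher (0.39), dendritic cell genes 1 of 8 higher (0.23) and keratinocyte genes 1 of 7 higher (-0.19). Salivary gland genes had 2 of 7 lower (-0.42), with Amy1, an amylase of salivary gland, at 11.2 to 240 counts in Lynfl/fl tumours, against 393, 46.4, 90.6 and 2913 in Lynwt/wt tumours. Neutrophil genes had 1 of 8 lower (0.10). There were 0 members at that p among 15 NF-kB genes (0.51), 10 endothelial (-0.18), 9 plasma cell (0.27), 8 Schwann and nerve (0.71), 7 NK and cytotoxic (0.49), 7 lymphatic endothelial (-0.24) and 3 lymph node stroma genes (-0.77).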
